A study of Mus musculus with 4 samples.

Results

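Genes of the mitochondrial respiratory chain and ATP synthase were followed in single stromal vascular cells of mouse subcutaneous fat. They were taken by symbol: every feature starting with mt-Nd, mt-Co, mt-Atp, mt-Cytb, Nduf, Sdha to Sdhd, Uqcr, Cox4i1, Cox5, Cox6, Cox7 or Atp5, without Ndufa4l2, Cox7a1 and pseudogenes. This gave 100 of 31053 features. Of these, 13 are encoded by the mitochondrial genome and 79 are nuclear subunits. The remaining 8 are Ndufaf genes, which code for proteins that help to assemble complex I and are not subunits, and they were kept apart. By complex the nuclear subunits were 37 of complex I, 4 of complex II, 8 of complex III, 13 of complex IV and 17 of complex V. Groups follow the symbols, so Ndufa4, now known as a complex IV subunit, stands with complex I, and Cox7a2l and Atp5s, which are not classical subunits, stand with complexes IV and V.

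The mice were female, Cth+/+ or Cth-/-, and were fed for 4 days, either with control food or with food free of cystine (cysteine free in the sample labels, cystine free in the protocol). Cth codes for cystathionine gamma-lyase, the enzyme that makes cysteine from cystathionine, so that Cth-/- mice on the cystine-free diet lack both that synthesis and the dietary supply. Depots were pooled after removal of lymph nodes, the number of animals is not given, and each of the 4 groups had 1 library of droplet-based 3′ single-cell RNA sequencing. There was therefore no replicate, and no test between groups was possible: the intervals given below are 95% intervals of counting error only, and an effect of diet or genotype cannot be told apart from a property of a library.

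The respiratory chain moves electrons from NADH (complex I) and succinate (complex II) through complexes III and IV to oxygen and pumps protons across the inner mitochondrial membrane, and complex V uses that gradient to make ATP. Complex II is built from nuclear genes alone, whereas the other complexes combine nuclear subunits with subunits encoded by mitochondrial DNA. The mitochondrial genes are transcribed as long precursors from both strands and cut into single RNAs inside the organelle. Fat tissue is known for uncoupled respiration in brown and beige adipocytes. Adipocytes float away when stromal vascular cells are prepared, so the cells measured here are mainly progenitors, endothelial, immune and epithelial cells.

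The promoters of nuclear subunit genes are known for binding sites of NRF1, of ETS factors such as GABP, and of YY1. RefSeq windows from 250 bases before to 50 bases after a start (build GRCm38.p6) were matched to 63 of the 79 nuclear subunits, which gave 68 windows. The NRF1 motif GCGCATGCG lay on either strand in 8 of these windows (11.8%), against 1.75% of all 32851 windows. The ETS motif CCGGAAG lay in 15 (22.1%, against 8.86%) and the YY1 motif AAGATGGC in 9 (13.2%, against 2.75%). The motifs do not contain each other. The 4 windows below belong to subunits to which the results return: Atp5e, with the lowest diet ratio in Cth-/- progenitors; Atp5k and Cox6a1, whose windows hold both an NRF1 and an ETS motif; and Ndufa6, the one nuclear subunit that was higher. Capitals mark NRF1 and ETS motifs, on either strand, and the palindromic NRF1 stretches match on both strands; the Ndufa6 window holds none of the 3 motifs.
Atp5e promoter, chr2:174464052-174464351, minus strand: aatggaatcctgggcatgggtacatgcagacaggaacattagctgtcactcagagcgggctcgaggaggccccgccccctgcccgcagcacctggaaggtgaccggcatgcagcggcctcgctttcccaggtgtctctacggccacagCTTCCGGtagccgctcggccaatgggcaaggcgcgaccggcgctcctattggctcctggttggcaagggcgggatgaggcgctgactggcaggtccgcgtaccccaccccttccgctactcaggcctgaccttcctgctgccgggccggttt
Atp5k promoter, chr5:108434350-108434649, minus strand: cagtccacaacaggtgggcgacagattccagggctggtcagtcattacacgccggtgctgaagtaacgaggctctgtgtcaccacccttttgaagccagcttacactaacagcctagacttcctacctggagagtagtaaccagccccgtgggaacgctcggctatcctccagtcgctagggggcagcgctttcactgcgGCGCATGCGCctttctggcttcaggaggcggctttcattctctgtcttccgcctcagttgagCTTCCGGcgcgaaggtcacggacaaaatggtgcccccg
Cox6a1 promoter, chr5:115348909-115349208, minus strand: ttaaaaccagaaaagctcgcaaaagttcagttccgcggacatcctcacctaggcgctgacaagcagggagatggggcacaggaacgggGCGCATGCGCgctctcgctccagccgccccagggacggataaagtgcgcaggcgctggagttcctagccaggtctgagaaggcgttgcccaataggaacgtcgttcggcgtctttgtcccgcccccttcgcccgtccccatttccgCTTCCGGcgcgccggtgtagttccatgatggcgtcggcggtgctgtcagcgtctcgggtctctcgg
Ndufa6 promoter, chr15:82354242-82354541, minus strand: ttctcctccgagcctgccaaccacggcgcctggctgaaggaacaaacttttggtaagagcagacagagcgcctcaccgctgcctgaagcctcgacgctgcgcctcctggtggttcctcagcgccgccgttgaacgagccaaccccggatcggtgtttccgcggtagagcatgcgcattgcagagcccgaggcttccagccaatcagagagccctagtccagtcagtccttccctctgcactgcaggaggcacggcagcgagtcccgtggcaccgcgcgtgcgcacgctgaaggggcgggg

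The libraries held between 15948807 and 30944977 UMIs. After filtering, 6330 and 6299 cells were kept of Cth+/+ mice (control and cystine-free diet) and 5692 and 4077 of Cth-/- mice (likewise). Pairs of libraries shared 40 to 69 barcodes. Cth itself gave 8 and 9 UMIs in the Cth+/+ libraries and 0 in both Cth-/- libraries, which allows up to 0.123 (control) and 0.216 (cystine-free) UMIs per 1000000. Cells were sorted into 5 gates by their UMIs: Dcn for progenitors and fibroblasts (Dcn at least 0.2% of a cell's UMIs), and gates for endothelial, phagocyte, T and epithelial cells. The Dcn gate held 2961, 3029, 3235 and 1560 cells in the order of groups above, and this order holds wherever 4 values are listed. Levels are UMIs per 1000000 UMIs (CPM) of all UMIs of a gate in a library. The 7 progenitor markers (Dcn, which set the gate, among them) summed to 24599, 30389, 25510 and 14833 CPM in the Dcn gate; all 7 were detected in every library.

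In Dcn-gated cells the Cth-/- cystine-free library had the lowest summed level of the respiratory chain, both nuclear and mitochondrially encoded. The 79 nuclear subunits summed to 19350, 19001, 19138 and 15900 CPM, so that 3 libraries lay close together and the Cth-/- cystine-free library lay below them. The 13 mitochondrially encoded subunits summed to 31324, 28659, 29776 and 19859 CPM. Against the Cth-/- control library this was a log2 ratio of -0.27 (-0.28 to -0.26) for the nuclear and -0.58 (-0.59 to -0.57) for the mitochondrial genes, or 16.9% and 33.3% lower. In Cth+/+ the same diet gave -0.03 and -0.13. The median of all features measured in the gate was -0.00 in Cth-/- and -0.08 in Cth+/+, and under a scaling by the median of gene ratios the nuclear sum in Cth+/+ turned to 0.06.

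Loss of Cth on the control diet gave -0.02 (nuclear; 0.05 under the median-of-ratios scaling) and -0.07 (mitochondrial). On the cystine-free diet it gave -0.26 and -0.53. This comparison and that of diet in Cth-/- share the Cth-/- cystine-free library and are not independent of each other. Cells over 10% mitochondrial UMIs were left out, which bears on the mitochondrial genes directly: 4.27%, 3.87%, 3.86% and 1.08% of Dcn-gated cells were over this limit. With no limit the mitochondrial sums were 33282, 30158, 31392 and 20252 CPM, and the diet ratio in Cth-/- was -0.63. Per cell, the median share of UMIs from the 13 mitochondrial genes was 3.28%, 2.93%, 3.06% and 2.10%, and that from the nuclear subunits was 1.85%, 1.78%, 1.81% and 1.52%.

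**Figure D1:**
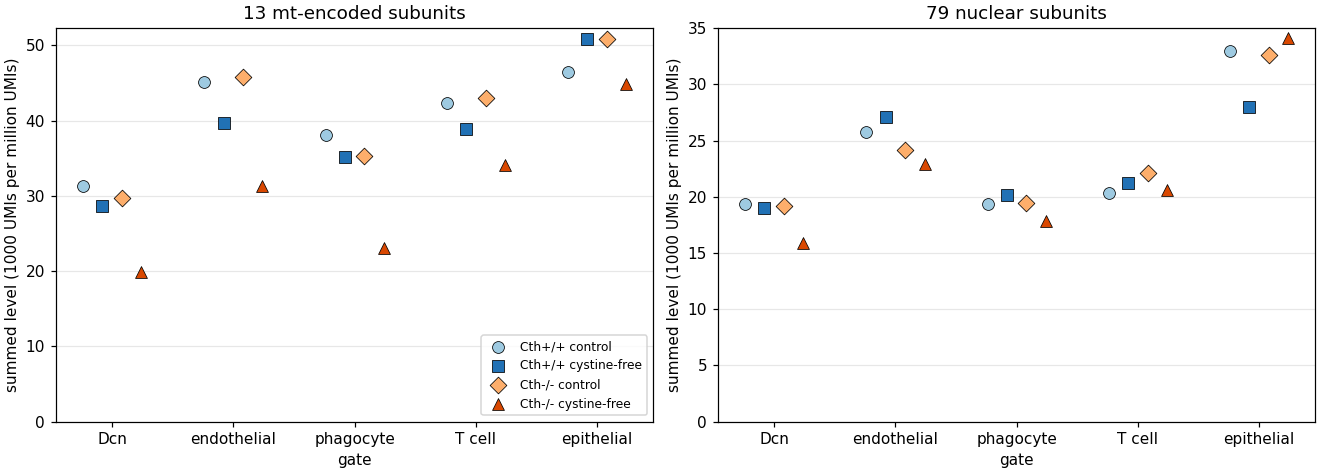
Summed level of the 13 mitochondrially encoded (left) and 79 nuclear (right) subunits by gate, in 1000 UMIs per 1000000 UMIs; each symbol is 1 library and there are no error bars because each group had 1 library. In the Dcn gate the Cth-/- cystine-free library is the lowest in both panels, at 19859 and 15900 UMIs per 1000000, and the mitochondrial sum of that library is the lowest in every gate.

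Complex I, the NADH dehydrogenase, summed over its 37 nuclear subunits to 6520, 6438, 6270 and 5262 CPM, a diet ratio in Cth-/- of -0.25 (-0.27 to -0.23). A subunit was called measured with at least 10 CPM and 30 UMIs in 1 of the 2 libraries compared; for diet in Cth-/- all 37 were. It was called lower with a level at least 20% below that of the denominator library and higher with one at least 25% above it, after 1 CPM was added to both, which is 0.32 on the log2 scale in both directions; a call is a size, not a test. By this rule 11 of the 37 were lower and 1 was higher, and of all features measured in this comparison 21.4% were lower and 20.2% higher. Ndufa1, a small membrane-arm subunit, had 213, 212, 223 and 138 CPM (-0.68). Ndufs8, which carries iron-sulfur clusters, had 51.2, 54.6, 45.6 and 29.3 CPM (-0.62, -0.90 to -0.38), and Ndufc1, an accessory subunit, had 217, 209, 220 and 146 CPM (-0.58). In each of these the Cth-/- cystine-free library was the lowest. The other 3 lay close together for Ndufa1 and Ndufc1 and less so for Ndufs8. Ndufa6, an accessory subunit, went the other way with 243, 289, 270 and 356 CPM (0.39, 0.32 to 0.47), and had a ratio of 0.25 in Cth+/+.

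Most of the core subunits, which are shared with bacteria and carry the redox centres, were near the level of the control library. Ndufv1, which holds the flavin that accepts electrons from NADH, had 41.8, 42.9, 38.2 and 43.2 CPM (0.17, -0.05 to 0.40). Ndufs1, which carries iron-sulfur clusters, had 27.3, 26.3, 27.1 and 25.3 CPM. The median ratio was -0.07 over the 7 nuclear core subunits, of which only Ndufs8 was called lower (background 21.4%). It was -0.25 over the 30 other (supernumerary) symbols, of which 10 were called lower. These 30 include Ndufa4, the complex IV subunit placed here by symbol, which was 1 of the 10 (389 to 272 CPM). Among the 30, Ndufa9 (0.07) and Ndufab1 (0.03) were the next highest after Ndufa6. This split was drawn after the values were seen and was not tested. In endothelial cells the medians for diet in Cth-/- were -0.03 (core) and -0.06 (other). In phagocytes they were 0.00 and -0.16, in T cells -0.01 and -0.11, and in epithelial cells 0.37 and 0.15.

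Complex II, the succinate dehydrogenase of the citric acid cycle, summed to 292, 291, 272 and 239 CPM (-0.18, -0.28 to -0.09). Sdha, the flavoprotein, had 101, 83.4, 87.1 and 85.3 CPM, so that its highest library was Cth+/+ control and the diet ratio was -0.27 in Cth+/+ and -0.03 in Cth-/-. Sdhc, a membrane anchor, had 58.6, 69.0, 63.7 and 50.6 CPM (-0.33 in Cth-/-, 0.23 in Cth+/+). Sdhb, the iron-sulfur subunit (-0.20), and Sdhd, the other anchor (-0.25), lay between them. Sdhc alone was called lower, 1 of 4 (background 21.4%).

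Complex III, which passes electrons from ubiquinol to cytochrome c, had the smallest reduction among complexes I, III, IV and V. Its 8 nuclear subunits summed to 2160, 2069, 2148 and 1872 CPM (-0.20, -0.23 to -0.17), and 3 of 8 were called lower (background 21.4%). These were small subunits: Uqcr10 with 347, 316, 311 and 225 CPM (-0.47), Uqcr11 with 368, 324, 353 and 259 CPM (-0.45) and Uqcrq (-0.32). Uqcrfs1, the Rieske iron-sulfur protein, had 72.1, 81.6, 81.8 and 87.9 CPM (0.10, -0.05 to 0.26). Uqcrh and Uqcrb, small subunits too, had ratios of -0.05 and -0.08. The core proteins Uqcrc1 and Uqcrc2 had ratios of -0.14 and -0.12, with intervals that include 0.

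Complex IV, cytochrome c oxidase, summed over 13 nuclear symbols to 5126, 5032, 5238 and 4388 CPM (-0.26, -0.28 to -0.23). Of 11 measured, 5 were called lower (background 21.4%). Cox6c had 823, 762, 899 and 607 CPM (-0.57, -0.62 to -0.51), and Cox7b had 249, 262, 259 and 185 CPM (-0.48). Cox6b2, known as the testis form, had the same ratio as Cox6c (-0.57) at 18.2, 15.8, 16.9 and 11.0 CPM, with an interval from -1.05 to -0.20. Cox4i1, the largest nuclear subunit, had 985, 969, 982 and 1003 CPM (0.03, -0.02 to 0.08) and differed little between the libraries. Cox5b, another subunit of the nuclear part, had 277, 274, 262 and 241 CPM (-0.12). Cox7a2l, a supercomplex factor, had 345, 405, 358 and 377 CPM (0.07), with its highest value in Cth+/+ cystine-free.

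Complex V, the ATP synthase, had the lowest ratio of the complexes. Its 17 symbols summed to 5252, 5171, 5211 and 4139 CPM (-0.33, -0.35 to -0.31). Of 15 measured, 5 were called lower (background 21.4%), and 3 of these were past 1.5-fold (background 10.1%). Atp5e, the epsilon subunit of the central stalk, had 768, 749, 792 and 442 CPM (-0.84, -0.91 to -0.78), the lowest ratio of all members. Atp5g1, one of 3 genes for the same c-ring protein, had 267, 262, 235 and 138 CPM (-0.77), while Atp5g3 had -0.37 and Atp5g2 -0.27. Atp5k, the small e subunit, had 416, 371, 390 and 256 CPM (-0.61). Atp5b, the catalytic beta subunit, had 245, 253, 236 and 236 CPM (0.00, -0.09 to 0.09). Atp5f1 (-0.07) and Atp5c1 (-0.11) were near it.

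**Figure D2:**
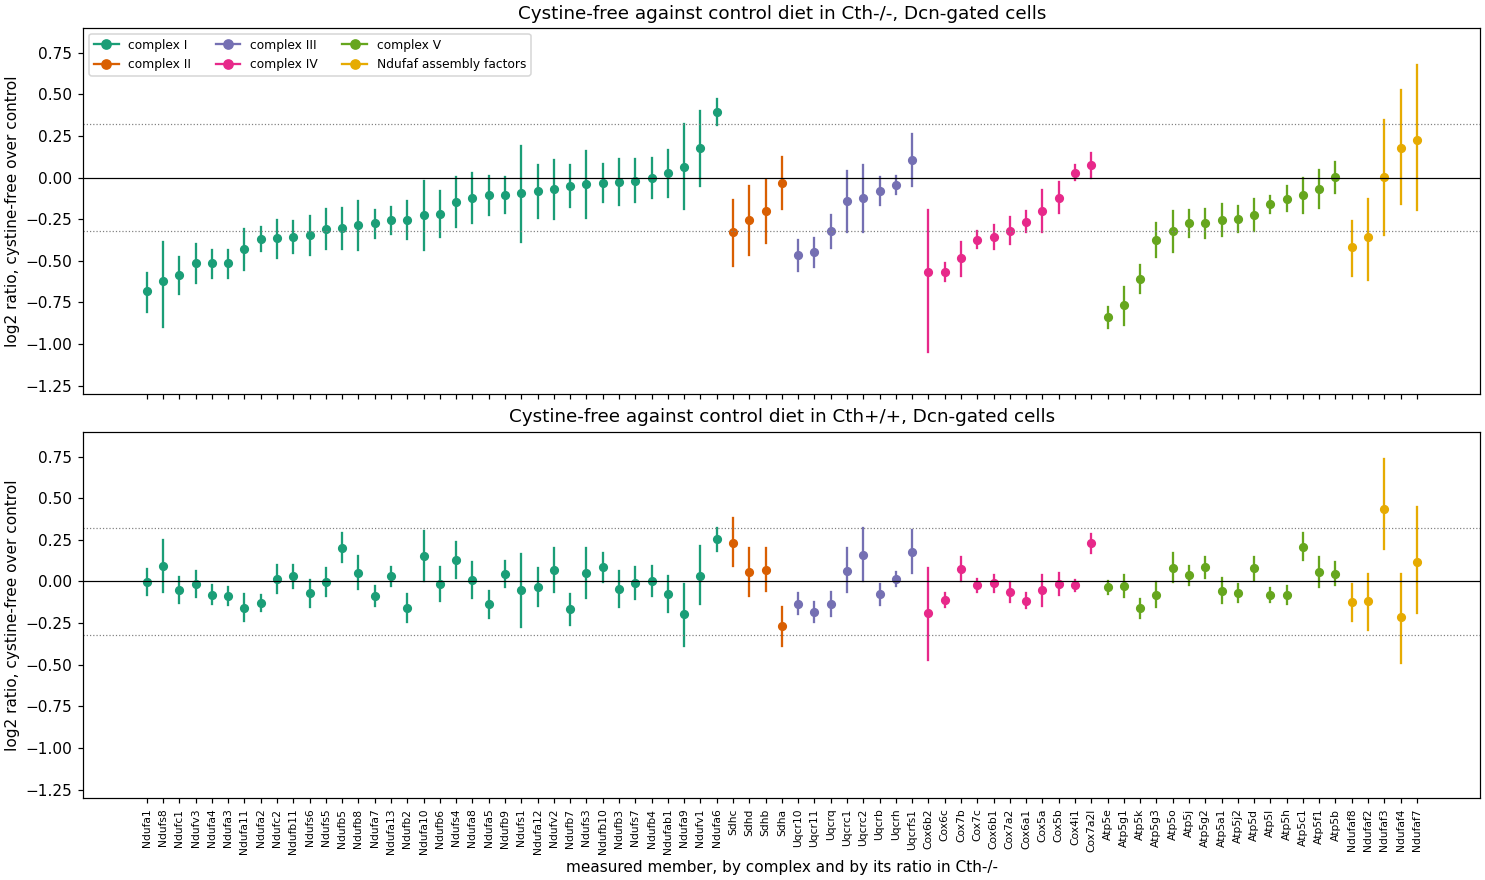
Log2 ratio of the cystine-free over the control library for measured nuclear members in Dcn-gated cells (1 is left out of the plot), in Cth-/- (top) and Cth+/+ (bottom), coloured by complex and ordered by the ratio in Cth-/-; bars are 95% counting intervals and dotted lines mark 0.32 and -0.32, the limits of a call. In Cth-/- the points run from Atp5e at -0.84 to Ndufa6 at 0.39 and most lie below 0 (67 of all 75 measured subunits did), and in Cth+/+ no point of a subunit is past a dotted line.

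Over all nuclear subunits, 75 of 79 were measured for diet in Cth-/-. Of these, 25 were called lower and 1 higher, and the median ratio was -0.25. The share that was lower (background 21.4%) was thus above that of all features and the share that was higher (background 20.2%) below it. Past 1.5-fold lower were 5 of the 75, a share below the background of 10.1%. In Cth+/+ 0 of 75 subunits were called in either direction, where 9.92% of all features were lower and 4.22% higher. Loss of Cth on the control diet likewise gave 0 in either direction, against 6.74% lower and 3.66% higher. Loss of Cth on the cystine-free diet gave 29 lower and 0 higher, against 23.1% and 24.3%. Past 1.5-fold lower were 5 of 75, against 949 of all 8325 measured features: Atp5g1 (-0.92), Ndufs8 (-0.88), Atp5e (-0.76), Ndufa1 (-0.61) and Ndufv3 (-0.61). The highest were Ndufa6 (0.30), Uqcrfs1 (0.11), Uqcrh (0.06) and Cox4i1 (0.05). On the control diet the extremes of Cth loss were smaller, with Ndufa9 (-0.32), Ndufa11 (-0.27), Ndufb7 (-0.26) and Ndufa5 (-0.23) among the lowest and Uqcrfs1 (0.18), Uqcrc2 (0.16) and Ndufa6 (0.15) among the highest. For diet in Cth+/+ they included Sdha (-0.27), Ndufa9 (-0.20), Cox6b2 (-0.19) and Uqcr11 (-0.18), and Ndufa6 (0.25), Sdhc (0.23) and Cox7a2l (0.23).

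The 4 nuclear subunits below the minimums were Cox7b2, at 0 UMIs in all libraries of the gate (which allows up to 0.266, 0.199, 0.192 and 0.571 CPM), Cox6a2, at or below 0.398 CPM, Atp5s, at 5.71 to 8.47 CPM, and a second gene ID of Atp5o, also at 0. The Ndufaf genes were mostly low. Ndufaf8 had 103, 94.6, 97.0 and 72.3 CPM (-0.42 in Cth-/-) and Ndufaf2 had 46.4, 42.7, 43.5 and 33.7 CPM (-0.36). Ndufaf3, Ndufaf4 and Ndufaf7 had ratios of 0.00, 0.18 and 0.23 with intervals that include 0, and Ndufaf1, Ndufaf5 and Ndufaf6 were under 10 CPM.

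The makeup of the nuclear sum changed little. Complex I gave 33.7%, 33.9%, 32.8% and 33.1% of it, complex IV 26.5%, 26.5%, 27.4% and 27.6%, and complex V 27.1%, 27.2%, 27.2% and 26.0%. The sum of the mitochondrial over that of the nuclear genes was 1.62, 1.51, 1.56 and 1.249 (1.73, 1.59, 1.65 and 1.27 with no mitochondrial limit), lowest in the Cth-/- cystine-free library.

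Among the mitochondrially encoded genes of the Dcn gate, 10 of 13 were called lower in Cth-/- on the cystine-free diet and 0 higher (background 21.4% and 20.2%). The complex I genes mt-Nd3, mt-Nd1 and mt-Nd4 had ratios of -0.72, -0.71 and -0.69. mt-Nd1 had 3200, 2817, 2917 and 1784 CPM (-0.76 with no mitochondrial limit), and mt-Cytb, the one complex III gene of this genome, had 3028, 2708, 2820 and 1741 CPM (-0.70, or -0.75 with no limit). mt-Atp6, the proton channel subunit of complex V, had 6156, 5826, 6059 and 3729 CPM (-0.70, or -0.75). In all 3 the Cth-/- cystine-free library stood well below the others.

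The catalytic oxidase subunit mt-Co1 had 5660, 5173, 5605 and 4196 CPM (-0.42, or -0.45), a smaller reduction than mt-Co2 (-0.58) and mt-Co3 (-0.56). mt-Nd2 (-0.43) resembled mt-Co1. mt-Nd5 had 280, 248, 260 and 223 CPM (-0.22, or -0.28). mt-Nd6, the one subunit encoded on the light strand, had 13.6, 11.7, 10.4 and 9.90 CPM (-0.06, -0.55 to 0.39), too few UMIs to place it. mt-Atp8 was the one with a ratio above 0, at 98.4, 88.6, 82.1 and 98.6 CPM (0.26, 0.11 to 0.41). It overlaps mt-Atp6 on the same RNA, as mt-Nd4l (159, 125, 143 and 98.2 CPM, -0.54) overlaps mt-Nd4, so the split of reads within these pairs is uncertain.

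In Cth+/+ all 13 ratios were below 0, between -0.01 (mt-Co2) and -0.35 (mt-Nd4l), and mt-Nd4l alone was called lower (background 9.92%); under the median-of-ratios scaling the ratio of their sum moved from -0.13 to -0.04. Loss of Cth on the control diet gave 1 of 13 called lower (mt-Nd6, -0.36, -0.72 to -0.07), with 6.74% of all features. On the cystine-free diet 9 of 13 were, with 23.1% of all features, and mt-Nd3 (-0.75), mt-Nd1 (-0.66), mt-Atp6 (-0.64) and mt-Cytb (-0.64) had the lowest ratios and mt-Atp8 (0.15) the highest.

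**Figure D3:**
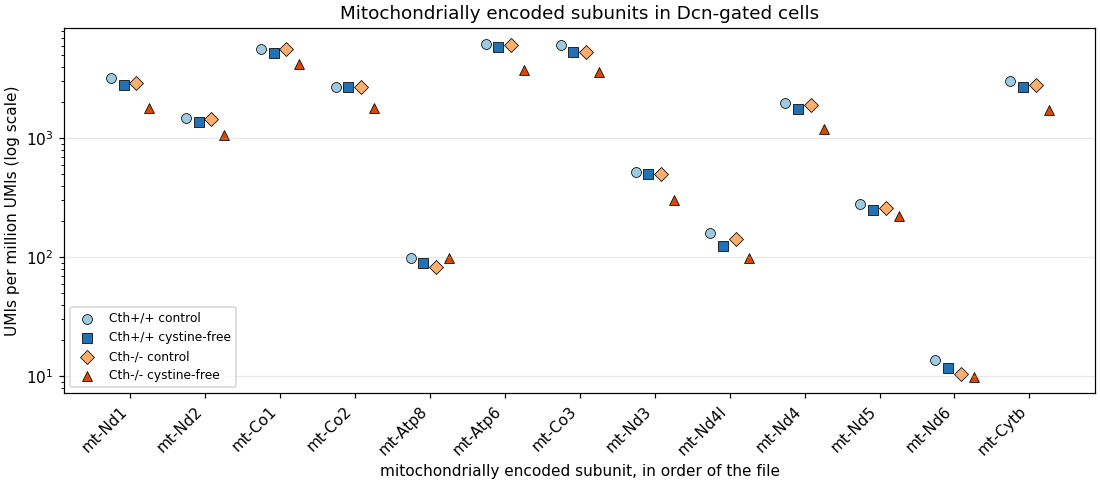
Level of each mitochondrially encoded subunit in Dcn-gated cells, in UMIs per 1000000 UMIs on a log scale; each symbol is 1 library. The Cth-/- cystine-free library is the lowest for 12 genes, and for mt-Atp8 it is level with the Cth+/+ control library (98.6 and 98.4).

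Levels also differed between gates. In the Cth+/+ control library the nuclear subunits summed to 19350 CPM in the Dcn gate, 25776 in the endothelial, 19314 in the phagocyte, 20290 in the T cell and 32966 in the epithelial gate. The mitochondrial genes summed to 31324, 45190, 38119, 42296 and 46477 CPM. Averaged over libraries, 28 of 37 complex I, 6 of 8 complex III, 10 of 13 complex IV and 13 of 17 complex V symbols and 9 of 13 mitochondrial genes were highest in epithelial cells. Sdha was highest in endothelial cells, and so was Atp5k (551 CPM on average, against 358 in the Dcn gate). Epithelial cells also had the most UMIs, with medians of 9642 to 10241 per cell, against 2023 to 4558 in the other gates.

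The lower level in the Cth-/- cystine-free library was present for the mitochondrial genes in each gate and less so for the nuclear subunits. In endothelial cells (1246, 1227, 511 and 1012 cells) the mitochondrial genes summed to 45190, 39630, 45774 and 31274 CPM (-0.55 in Cth-/-, also -0.55 with no limit; -0.19 in Cth+/+). The nuclear subunits summed to 25776, 27119, 24129 and 22926 CPM (-0.07 in Cth-/-, or -0.02 with no limit; 0.07 in Cth+/+). The limit removed 15 of 1027 cells of this gate in the Cth-/- cystine-free library. For diet in Cth-/- 11 of 13 mitochondrial genes but 7 of 74 nuclear subunits were called lower, with 18.4% of all features, and 0 and 1 were higher, with 15.7%. mt-Nd1, at 3566, 3334, 3616 and 2043 CPM, had the lowest ratio (-0.82). Markers of other cells differed between these libraries as well. In the endothelial gate the 9 adipocyte markers summed to 265, 144, 472 and 763 CPM, the 7 progenitor markers to 1292, 1471, 1714 and 431 CPM, the 7 epithelial markers to 188, 80.0, 187 and 408 CPM and the 4 haemoglobin genes to 4165, 8064, 2185 and 544 CPM, all detected in each library; their part in the ratios was not tested.

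In phagocytes (884, 1025, 1130 and 771 cells) the mitochondrial genes summed to 38119, 35143, 35335 and 23047 CPM (-0.62 in Cth-/-, or -0.54 with no limit) and the nuclear subunits to 19314, 20158, 19475 and 17818 CPM (-0.13, or -0.06). The limit removed only 8 of 779 cells of this gate in the Cth-/- cystine-free library. For diet in Cth-/- 11 of 12 measured mitochondrial genes and 12 of 75 nuclear subunits were called lower in phagocytes, with 20.6% of all features, and 1 and 1 were higher, with 15.3%. mt-Nd3 had 611, 635, 575 and 318 CPM (-0.85), and mt-Atp8 was again the one above 0 (0.35). Atp5g1 (220 to 144 CPM, -0.61) was past 1.5-fold here too. In this gate the 7 progenitor markers summed to 1626, 1667, 1985 and 436 CPM, all detected in each library, and the 9 adipocyte markers to 26.7, 24.0, 38.3 and 138 CPM, with 1 or 2 of them at 0 in each library (Plin1 in both Cth+/+ libraries). The epithelial markers summed to 207, 165, 283 and 557 CPM and the haemoglobin genes to 881, 5302, 466 and 397 CPM there. Their part in the ratios was not tested either. For diet in Cth+/+ the phagocyte sums gave -0.12 (mitochondrial) and 0.06 (nuclear), in a comparison where the median of all features was -0.09 and moved to 0.01 under the median-of-ratios scaling.

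T cells were few (259, 187, 111 and 231) and their ratios imprecise. The mitochondrial genes summed to 42296, 38895, 43003 and 34058 CPM (-0.34) and the nuclear subunits to 20290, 21232, 22114 and 20562 CPM (-0.10). Of 12 measured mitochondrial genes 7 were called lower and 1 (mt-Atp8, 0.84, 0.14 to 1.63) higher. Of 72 nuclear subunits 12 were lower and 9 higher, against 25.3% and 21.6% of all features. Sdhd had the highest nuclear ratio (22.6 to 55.9 CPM, 1.27), with an interval from 0.05 to 2.84. Ndufa12 (0.65), Ndufs5 (-0.61), Ndufb8 (-0.63) and Atp5o (0.60) were past 1.5-fold as well; the intervals of Ndufa12 and Ndufs5 include 0. For diet in Cth+/+ Ndufs3 (0.81), Uqcrfs1 (0.78), Ndufs8 (0.71), Sdhb (0.68) and Atp5d (0.67) were past it.

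Epithelial cells (193, 138, 194 and 121) did not show the nuclear reduction in Cth-/-. Their nuclear subunits summed to 32966, 28018, 32641 and 34117 CPM (0.06 in Cth-/-, -0.24 in Cth+/+), so that the Cth+/+ cystine-free library was the lowest. In Cth-/- 10 of 76 subunits were called higher and 1 lower, against 21.8% and 20.4% of all features, with Ndufv1 (58.2 to 92.6 CPM, 0.66) and Ndufb10 (168 to 265 CPM, 0.66) past 1.5-fold and Atp5s (-0.95, at 16.1 to 7.85 CPM) lower. The mitochondrial genes summed to 46477, 50795, 50806 and 44904 CPM (-0.18 in Cth-/-, 0.13 in Cth+/+). Without the mitochondrial limit, which removed 24.0%, 10.4%, 24.2% and 11.0% of these cells, the sums were 55438, 54885, 62861 and 48234 CPM and the ratios -0.38 and -0.01. The basal markers Krt5, Krt14 and Trp63 together had 60.5, 691, 72.8 and 193 CPM in this gate, so that the mix of epithelial cells differed between libraries; its part in these ratios was not tested.

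Loss of Cth on the cystine-free diet gave lower sums in the other gates, except for the nuclear sum of epithelial cells, which was higher. The Cth-/- cystine-free library is shared with the comparison of diets. On the cystine-free diet the mitochondrial sum had a ratio of -0.34 in endothelial cells (-0.31 with no limit on mitochondrial UMIs), -0.61 in phagocytes (-0.53), -0.19 in T cells (-0.22) and -0.18 in epithelial cells (-0.19), and the nuclear sum -0.24, -0.18, -0.05 and 0.28. Atp5g1 had -0.99 in endothelial cells and -0.70 in phagocytes, and so was past 1.5-fold in both as in the Dcn gate. In endothelial cells Sdhd (-0.68), Ndufs8 (-0.66), Atp5e (-0.64), Atp5g2 (-0.63) and Uqcrc1 (-0.59) were past it too. This made 6 of 75 nuclear subunits past 1.5-fold lower there, a share below that of all features (1079 of 8550). In phagocytes Cox6b2 (-0.95, and -0.72 for diet in Cth-/-) and Ndufv2, which carries an iron-sulfur cluster (-0.62), were past it. In epithelial cells Ndufv1 (0.70), Ndufa9 (0.69), Ndufa12 (0.65), Ndufs5 (0.64) and Ndufa7 (0.59) were past it in the other direction. The genes of phagocytes and epithelial cells are named by size only, without a share of all features.

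On the control diet the ratios of Cth loss were -0.10, 0.01, 0.12 and -0.01 for the nuclear sums of these gates in the same order. Measured nuclear subunits past 1.5-fold were Ndufs3 (0.75), Ndufa12 (-0.60) and Sdhd (-0.97) in T cells and Atp5s (0.65) in epithelial cells, each with an interval that includes 0. On the cystine-free diet mt-Atp8 had a ratio of 1.04 in T cells. Measured assembly factors past 1.5-fold in some gate were Ndufaf2 (-0.59 for Cth loss on the control diet in endothelial cells, -0.65 for diet in Cth-/- phagocytes), Ndufaf4 (between -0.61 and -0.75 in 4 comparisons of endothelial cells and phagocytes), Ndufaf7 (0.83 for diet in Cth-/- phagocytes) and Ndufaf3 (-0.59 and -0.91 for Cth loss in phagocytes on the control and the cystine-free diet, and, in epithelial cells, 0.72 on the latter and 0.63 for diet in Cth-/-). All of these factors were at low levels, 58.3 CPM or less in each library compared.

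**Figure D4:**
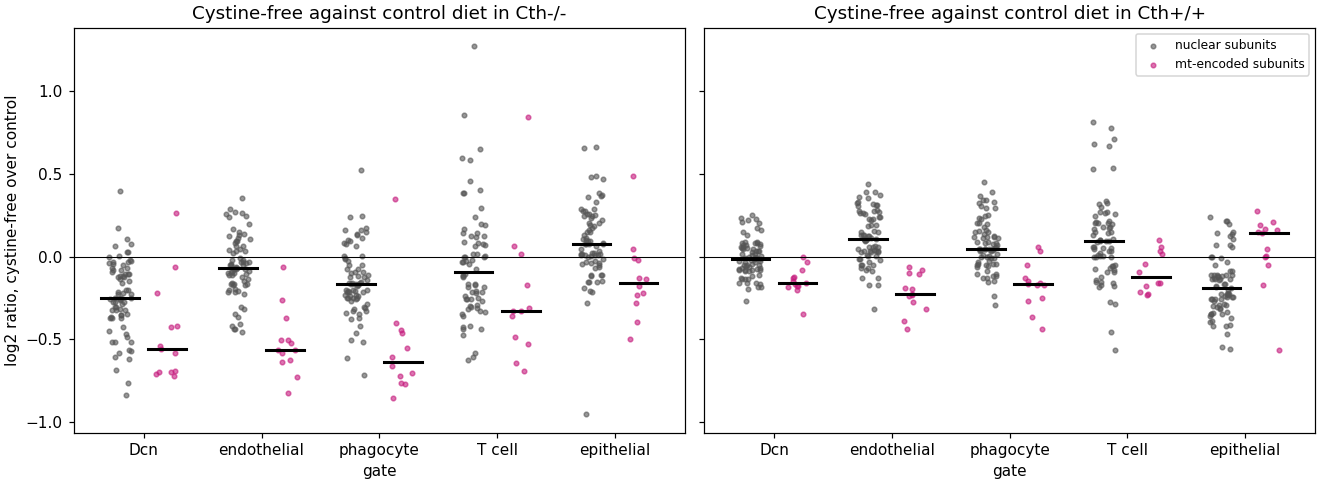
Log2 ratio of the cystine-free over the control library for each measured nuclear (grey) and mitochondrially encoded (pink) subunit by gate, in Cth-/- (left) and Cth+/+ (right); black bars are medians and the sideways spread of points carries no meaning. In Cth-/- the mitochondrial medians lie at -0.56 in Dcn, -0.56 in endothelial, -0.63 in phagocyte, -0.33 in T and -0.16 in epithelial cells.

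Within the Dcn gate, cells with and without a UMI of Pi16 or Dpp4, which mark progenitors of the interstitial type, were compared after the data were seen. The mitochondrial genes summed to 28723, 26548, 27462 and 16834 CPM in cells with such a UMI (1373, 1678, 1839 and 916 cells; -0.71 for diet in Cth-/-), and to 34707, 32013, 33922 and 26104 CPM in the others (-0.38). The nuclear subunits went the other way, with -0.23 in cells with such a UMI and -0.34 in the others. Whether the cells differ in this was not tested, and a cell with few UMIs is more likely to lack both markers.

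Shorter subunit transcripts had lower median diet ratios in Dcn-gated cells of both genotypes. Transcript lengths (GENCODE vM21) were found for all 79 nuclear subunits. A length is the median over a gene's annotated protein-coding transcripts in the basic set. Which transcript the cells expressed was not assessed. Atp5g1, with 235 and 138 CPM in the Cth-/- control and cystine-free libraries, stood among the longest at 2675.5 nt. The 37 shorter of the measured subunits had a median ratio of -0.32 and the 38 longer ones -0.13, and across subunits Pearson's r between log2 length and ratio was 0.32 (75 genes, which share their 2 libraries and are not replicates). The class below 500 nt held Atp5e, Atp5k, Ndufa1 and Uqcr10. Ndufa6, the 1 subunit called higher (270 to 356 CPM in Cth-/-), and Uqcrh (720 to 697 CPM) belonged to it too. In this class the median was -0.51 over 11 subunits and -0.19 over 53 other protein-coding genes (-0.32 over 41 without ribosomal protein genes). From 500 to 700 nt it was -0.30 over 21 subunits and -0.18 over 194 others, and from 700 to 1000 nt -0.12 over 17 and -0.10 over 486. From 1500 to 3000 nt it was -0.14 over 15 and 0.01 over 2909. Short genes other than subunits were thus also lower in this library, by less below 500 nt than the subunits were. For diet in Cth+/+ the relation among subunits was of similar size in the same gate (r = 0.28, with medians of -0.07 for the shorter and 0.05 for the longer ones), while across other genes r was -0.21, against 0.08 for diet in Cth-/-. For Cth loss on the cystine-free diet, which shares the Cth-/- cystine-free library, r among subunits was 0.16 in the Dcn gate. The medians there were -0.27 for the shorter and -0.23 for the longer ones. For diet in Cth-/- r was 0.12 in endothelial cells, 0.05 in phagocytes, 0.26 in T cells and 0.10 in epithelial cells. The part of length in the subunits' ratios was not tested.

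**Figure D5:**
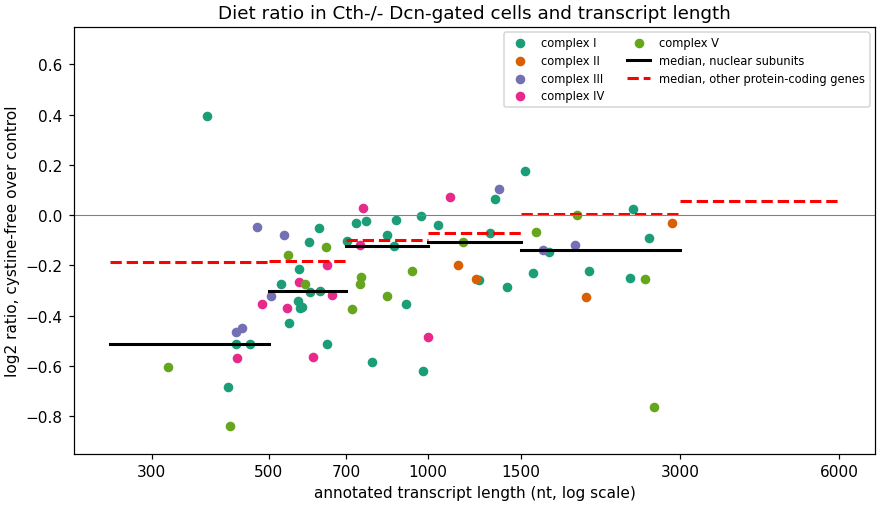
Diet ratio of each measured nuclear subunit in Cth-/- Dcn-gated cells against its annotated transcript length in nucleotides (log axis), coloured by complex; black lines are medians of the subunits and red dashed lines medians of other protein-coding genes in the same length class. The subunits' median runs from -0.51 below 500 nt to -0.14 at 1500 to 3000 nt.

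The promoter motifs shown above did not separate the subunits by ratio. The median diet ratio in Cth-/- was -0.27 for 8 measured subunits with an NRF1 motif and -0.24 for 54 without, -0.25 for 15 with and 47 without an ETS motif, and -0.28 for 9 with and -0.22 for 53 without a YY1 motif. Atp5e and Atp5k (-0.61) both carry an ETS motif, as does Cox6a1 (608, 562, 581 and 483 CPM, -0.26).

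Other genes that build or serve the respiratory chain were read from lists, again for diet in Cth-/- Dcn-gated cells. Of 70 measured genes of the mitochondrial ribosome, which translates the 13 mitochondrial mRNAs, 16 were called lower and 2 higher (median -0.18), with Mrpl48 (-0.71), Mrpl41 (-0.63), Mrpl49 (-0.61) and Mrpl52 (-0.61) past 1.5-fold. Of 20 assembly factors of complexes III to V, 5 were lower and 1 higher (median -0.19), among them Coa3, a complex IV assembly factor (90.9 to 55.6 CPM, -0.70), and Uqcc2, a complex III assembly factor (-0.57). Of 17 citric acid cycle genes 3 were lower (Ogdh, Idh2, Suclg1) and 1 higher (Pdhb), with a median of -0.17. Of 21 import genes 3 were lower and 1 higher (median -0.08), with Timm17b, part of the inner membrane translocase, at 40.9 to 21.7 CPM (-0.89). Against 21.4% lower and 20.2% higher of all features, these shares of lower genes were close to the background or below it. The shares of higher genes were below the background in each of these lists. Ratios below 0 were found for 51 of the 70 ribosome genes, 15 of the 20 assembly factors, 12 of the 17 cycle genes and 13 of the 21 import genes.

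The counts of the remaining lists are read against the same 21.4% and 20.2%. Of 12 measured chaperones and proteases of the mitochondrial matrix, 3 were higher, a share near the background, and 0 lower (median 0.07): the chaperone Hspa9 (93.0 to 128 CPM, 0.45) and the protease genes Lonp1 (0.42) and Clpx (0.46). Of 10 genes of mitochondrial DNA maintenance and expression, Ssbp1 (0.40) and Polg2 (0.33) were higher and Slirp (-0.38) and Hsd17b10 (-0.43) lower, with a median of 0.21. Of 8 regulators of mitochondrial biogenesis, Ppard was lower (11.1 to 6.47 CPM, -0.70) and 0 were called higher, with a median of 0.15. Of 14 measured glycolysis genes 2 were higher and 2 lower, with a median of -0.11 and 10 ratios below 0. The higher ones were Hk2, which phosphorylates glucose (250 to 437 CPM, 0.80), and the glucose transporter Slc2a1 (7.38 to 12.6 CPM, 0.70). The lower ones were Pgam1 and Ldha.

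The non-members whose level was most like the nuclear sum over the 20 sums of 5 gates in 4 libraries were Aurkaip1 (r = 0.95), Tomm7 (0.95), Mad2l2 (0.94), Edf1 (0.94) and Cox8a (0.94). For the mitochondrial sum they were Nudt14 (0.88), Set (0.87), Gm10076 (0.84), Banf1 (0.83) and Aurkaip1 (0.83). These sums share libraries, so r describes them only.

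Some markers of other cells, though not all, set the Cth-/- cystine-free library apart in the Dcn gate. All 9 adipocyte markers were detected in each library and summed to 19.6, 14.4, 22.2 and 91.2 CPM; without cells that held an Adipoq UMI the diet ratios in Cth-/- were -0.27 (nuclear) and -0.58 (mitochondrial). The 5 brown or beige markers summed to 9.04, 6.56, 7.76 and 28.6 CPM, with Ucp1 and Elovl3 at 0 in Cth+/+ control and Ucp1 at 0 in Cth+/+ cystine-free, and the 4 haemoglobin genes summed to 1248, 2279, 649 and 82.8 CPM. Phagocyte markers summed to 548, 434, 428 and 354 CPM. Endothelial markers summed to 147, 121, 72.9 and 134 CPM and epithelial markers to 185, 73.2, 148 and 96.5 CPM. In both of these sets the Cth-/- cystine-free library lay within the range of the others. The part of free RNA from other cells in these ratios was not tested. Median depth in the gate was 3279, 4558, 4380 and 3065 UMIs; with each cell thinned to 1000 UMIs the ratios in Cth-/- were -0.27 and -0.58. As sums over whole libraries, where the share of each cell type enters too, they were -0.04 and -0.31.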

How the data were processed

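The authors deposited raw UMI counts per gene and barcode, made with Cell Ranger 3.0.0 per the file headers, on mm10 per the submitters' processing notes; filtering of the deposited barcodes is not given in the sources used here. The members and gene lists were chosen with earlier results of these data known. Barcodes with at least 300 genes, 500 UMIs and at most 10% mitochondrial UMIs were kept, and Scrublet (scanpy 1.11.5) was run on each library to take out doublets, at 0.8% expected per 1000 barcodes. Besides the Dcn gate, a cell entered a gate with at least 3 UMIs of Cdh5, Pecam1 and Cldn5 (endothelial), 4 of Csf1r, Cd68 and Lyz2 (phagocyte), 2 of Cd3d, Cd3e and Cd3g (T cell) or 5 of Krt8 and Krt18 (epithelial), and every gate it met. UMIs were summed per gate and library. For single genes 1 CPM was added to both levels before the log2 ratio was taken, and for sums nothing. Intervals are exact conditional binomial intervals from the counts without the pseudocount, for counting error only. The functions were tested on simulated data. Genes were named by rule: all mitochondrial genes, the 3 highest and 3 lowest ratios per complex for diet in Cth-/- in the Dcn gate, the extremes of the other comparisons, members past 1.5-fold in any gate, low members, and list genes past 1.5-fold; a few others were chosen after their values were seen, and 1 member is not reported here by name, though it counts in the sums and counts. Alternatives are given at the end.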

Additional observations from a re-analysis of the deposited data

Results flagged for a closer look

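In 2 cases the diet ratios of a member had opposite signs in Cth-/- and Cth+/+, each past the limit of a call. In phagocytes Cox6b2 had a log2 ratio of -0.7167 in Cth-/- and 0.3445 in Cth+/+, at 16.3 and 9.53 CPM in the Cth-/- control and cystine-free libraries. In epithelial cells Ndufaf3, an assembly factor of complex I, had 0.6288 in Cth-/- (37.4 to 58.3 CPM) and -0.3981 in Cth+/+. The Cth+/+ ratios rest on few UMIs. Cox6b2 had 41 and 78 UMIs in the Cth+/+ control and cystine-free libraries, and Ndufaf3 had 136 and 58. The counting intervals of both Cth+/+ ratios include no change, so their direction is uncertain. With 1 library a group these differences were not tested.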

How the results depend on the processing

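No paired analysis was possible because each group had 1 library. The 8 summed log2 ratios of the Dcn gate are given in the order diet in Cth-/- nuclear and mitochondrial, diet in Cth+/+ likewise, Cth loss on the control diet, Cth loss on the cystine-free diet. Values are listed where they left the counting interval, which is narrow. The nuclear and mitochondrial ratios for diet in Cth-/- stayed below 0 under all 14 alternatives. For the 4 mitochondrial ratios, no mitochondrial limit gave -0.63, -0.14, -0.084 and -0.57, and a limit of 20% gave -0.61, -0.15, -0.085 and -0.55. A minimum of 500 genes and 1000 UMIs gave -0.60, -0.12, -0.066 and -0.54. Doubled gate minimums gave -0.26, -0.56, -0.035, -0.14, -0.027, -0.098 and -0.51 (Cth loss on the cystine-free diet, mitochondrial). UMIs other than mitochondrial ones as denominator gave -0.28 and -0.60 for diet in Cth-/- and -0.27 and -0.54 for Cth loss on the cystine-free diet. A mean over cells gave -0.29, -0.53, -0.053, -0.18, -0.12 (Cth loss on the control diet, mitochondrial) and -0.47 (on the cystine-free diet, mitochondrial). Median-of-ratios scaling gave -0.57 (diet in Cth-/-, mitochondrial), 0.060, -0.042, 0.046, -0.011, -0.27 and -0.54, which turned both near-zero nuclear ratios above 0. Thinning to 1000 UMIs gave -0.062 and -0.15 for diet in Cth+/+, -0.094 for Cth loss on the control diet (mitochondrial) and -0.23 on the cystine-free diet (nuclear). Whole-library sums gave -0.040, -0.31, -0.055, -0.15, -0.094, -0.15, -0.080 and -0.32; these hold all cell types, and the part of the cell mix was not tested. Chosen after seeing the data, Dcn cells with a Pi16 or Dpp4 UMI gave -0.23, -0.71, -0.012, -0.11, -0.028, -0.065, -0.24 and -0.66, and those without gave -0.34, -0.38, -0.039, -0.12, 0.020, -0.033, -0.28 and -0.29. In the latter mt-Nd4l turned to 0.16 for Cth loss on the cystine-free diet; the cause was not tested. Keeping doublets, cells of 1 gate only and leaving out cells with an Adipoq UMI kept all 8 within their intervals. Of 7084 further recomputed values (single members, counts and other gates), 6342 kept within their interval or within 1.5 times of a count, 741 left it and 1 called value turned, as given. Depth limits T cells most, with 111 cells in the Cth-/- control library.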

Other observations

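Some respiratory genes outside the rule differed widely between libraries. Over the 11 measured for diet in Cth-/- in the Dcn gate the median ratio was -0.02, and those below are described only. In Dcn-gated cells Chchd10, a protein of the intermembrane space, had 10.6, 13.3, 14.4 and 257 CPM, and in phagocytes 9.88, 9.90, 8.54 and 44.6 CPM, so that the Cth-/- cystine-free library was the highest in both. Endothelial cells (98.1, 93.6, 112 and 204 CPM) and epithelial cells (159, 130, 142 and 192 CPM) had more of it in every control library. Cox8b, a complex IV subunit of brown fat and muscle and one of the brown or beige markers, had 5.23, 2.45, 3.14 and 16.9 CPM in Dcn-gated cells; its ubiquitous counterpart Cox8a had 711, 735, 708 and 584 CPM and resembled the members.

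Paralogs known for response to low oxygen were lowest in the Cth-/- cystine-free library. Ndufa4l2 had 23.7, 60.5, 24.4 and 3.05 CPM in Dcn-gated cells and 150, 228, 121 and 44.4 CPM in endothelial cells, and Cox4i2 had 85.6, 133, 83.8 and 27.9 CPM in endothelial cells. The 5 mural cell markers, of cells known to express both genes, summed to 1234, 1406, 993 and 469 CPM in the endothelial gate and 72.3, 72.0, 43.8 and 17.3 CPM in the Dcn gate, lowest in the same library; their part in these values was not tested. The electron carriers Cyc1 (56.6, 60.2, 52.1 and 53.7 CPM) and Cycs (93.1, 95.4, 103 and 102 CPM) differed little in Dcn-gated cells.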
